A study of Canis lupus familiaris with 10 samples.

Results

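Fibrillar collagens are the load-bearing proteins of connective tissue, and the genes described here encode their chains and the enzymes that crosslink them. Members were the probe sets named for COL1A1, COL1A2, COL3A1, COL5A1, COL5A2, COL11A1, LOX, LOXL1, LOXL2 or PLOD2 on the Canine_2 expression array. In all, 23 probe sets of 7 of these 10 genes were found among 42860 probe sets, and 22 of the 23 were tested. COL11A1, LOXL1 and PLOD2 are not analysed here. Total RNA came from cultured primary hemangiosarcoma cells, a malignant tumor with features of blood vessel lining, of splenic origin in 10 dogs, with 1 array per dog. Frog, Journey, Tucker and the cultures CHAD-G4, CHAD-G6 and CHAD-G8 came from the 6 Golden Retrievers. The 3 non-Golden Retrievers were CHAD-P9 (a Portuguese Water Dog), Dal-4 (a Dalmatian) and Joey (a Rottweiler). DD-1, a Golden Retriever by Great Pyrenees F1 dog, belonged to neither group.

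The breed comparison asks whether the dog's genetic background leaves a mark on the expression profile of the tumor. All cultures were cryopreserved cells of the earliest available passages, with no drug or other treatment named, so each culture stands for 1 tumor of 1 dog. Per the study's methods, Frog and Journey are distantly related, and every non-Golden Retriever was male, against 3 males and 3 females among the Golden Retrievers. Values are log2 signals after robust multiarray averaging (RMA, a method that scales the arrays to a common distribution and summarizes the probes of each set), so 1 unit is a doubling of signal. Each SD is the spread between dogs, since no culture was arrayed again, and the number of arrays limits the precision. A probe set was tested when its signal exceeded the 40th percentile of the array, which lay between 5.03 and 5.16, on at least 3 of the 9 purebred arrays. Array medians over all 42860 probe sets ran from 5.78 to 5.84. Of 13 endothelial markers, 4 (PECAM1, TEK, EMCN and ESAM) were below that percentile on all arrays and 6 above it on all arrays, among them KDR at 6.51 to 8.25 and CDH5, near it, at 5.15 to 5.41. Of 7 leukocyte markers, 3 (PTPRC, ITGAM and CD79A) were below that percentile on all arrays and 3 above it on all arrays. Of 8 fibroblast markers, 5 were above it on all arrays and 0 below it on all arrays. Among them, DCN had signals of 12.55 to 14.21 and DPT of 4.39 to 10.54.

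Fibrillar procollagens are made as triple helices in the endoplasmic reticulum, trimmed outside the cell by proteases that remove their end peptides, and then assemble side by side into fibrils. Type I collagen combines the chains of COL1A1 and COL1A2, type III is a homotrimer of the COL3A1 chain, and type V, from COL5A1 and COL5A2, is incorporated into type I fibrils and limits their diameter. Lysyl oxidases, such as LOX and LOXL2, oxidize lysines of the assembled collagens and thereby start the covalent crosslinks that stiffen the matrix. In splenic hemangiosarcoma, the tumor cells lie among a collagen-bearing stroma of vascular spaces. In the dog assembly UU_Cfam_GSD_1.0, COL3A1 and COL5A2 are neighbors on chromosome 36, COL1A1 and COL5A1 are both on chromosome 9, and COL1A2, LOX and LOXL2 are on chromosomes 14, 11 and 25.

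The 5 collagen genes with data were expressed in the cells of every dog. For each gene, the probe set with the highest mean over the 10 arrays is called its lead probe set. The lead probe set of COL1A2 had signals of 14.30 in CHAD-G4, 14.32 in CHAD-G6, 14.24 in CHAD-G8, 14.23 in Frog, 14.06 in Journey and 14.27 in Tucker, against 14.20 in CHAD-P9, 14.00 in Dal-4 and 14.26 in Joey, with 14.22 in DD-1. Dal-4 was lowest and Journey next, and the breed groups overlapped throughout. The whole range was 0.32 log2 units, a 1.25-fold span (SD 0.103, n = 10), and 98.5% of all tested probe sets varied at least as much. That evenness depended on the probe set: the S2_at set, whose mean was nearly the same, ran from 13.98 in Journey to 14.50 in CHAD-G6 among Golden Retrievers, against 13.43 in Dal-4, 13.97 in Joey and 14.46 in CHAD-P9. Its range was 1.07 log2 units (SD 0.33, n = 10), and 49.7% of all tested probe sets varied at least as much. At its closest, the signal lay 0.28 log2 units under the top value of an array for the lead set and 0.09 for the S2_at set. Whether differences are compressed so close to the top was not tested.

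The lead probe set of COL3A1 was also even. It had signals of 13.92 in CHAD-G4, 14.30 in CHAD-G6, 14.32 in CHAD-G8, 14.28 in Frog, 14.02 in Journey and 14.33 in Tucker, against 14.15 in CHAD-P9, 14.09 in Dal-4 and 14.20 in Joey, with 14.28 in DD-1. CHAD-G4 and Journey, both Golden Retrievers, were the lowest dogs, and the non-Golden Retrievers all fell within the Golden Retriever range. The range was 0.41 log2 units (SD 0.14, n = 10), against 0.76 and 0.66 in 2 other sets of high signal, and the signal came as close as 0.26 log2 units to the top value of an array. For COL5A2, the chain that completes type V collagen, the lead probe set ran from 13.75 in CHAD-G4 to 14.03 in CHAD-G8 among the Golden Retrievers, against 13.68 in Dal-4, 13.89 in Joey and 14.01 in CHAD-P9. DD-1 had 13.90. The range was 0.35 log2 units (SD 0.111, n = 10), against 1.24 in the other COL5A2 set, and Dal-4 was lowest in both.

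COL1A1 varied more, and mainly through single dogs. The lead probe set had signals of 13.44 in CHAD-G4, 13.63 in CHAD-G6, 13.54 in CHAD-G8, 13.51 in Frog, 13.17 in Journey and 13.39 in Tucker, against 13.27 in CHAD-P9, 13.42 in Dal-4 and 12.84 in Joey, with 13.43 in DD-1. Joey was the lowest dog, Journey was next, and the other 8 dogs lay between 13.27 and 13.63. COL5A1 had the widest spread of the collagens. Its signals were 12.10 in CHAD-G4, 12.16 in CHAD-G6, 12.47 in CHAD-G8, 12.01 in Frog, 11.20 in Journey and 11.19 in Tucker, against 11.95 in CHAD-P9, 11.58 in Dal-4 and 10.79 in Joey, with 12.27 in DD-1. The Golden Retrievers thus held 4 dogs at or above 12.01 and 2 dogs near 11.20, with CHAD-P9 and Dal-4 in the gap between them and Joey below all others. The range was 1.69 log2 units, a 3.22-fold span (SD 0.554, n = 10), and 19.0% of all tested probe sets varied at least as much.

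LOX, the founding lysyl oxidase, varied the most of all member genes. Its single probe set had a signal of 12.34 in CHAD-G4, 10.79 in CHAD-G6, 11.03 in CHAD-G8, 10.70 in Frog, 10.22 in Journey and 9.45 in Tucker, against 11.36 in CHAD-P9, 11.51 in Dal-4 and 9.41 in Joey, with 10.48 in DD-1. Each breed group held both high and low dogs, with CHAD-G4 at the top and Tucker and Joey at the bottom. The 2.93 log2 units between CHAD-G4 and Joey are a 7.62-fold span (SD 0.907, n = 10), which 6.22% of all tested probe sets reached or exceeded in SD. CHAD-G4 also had the lowest signal for the smooth muscle marker ACTA2, at 6.39 against 9.73 to 14.13 in the other dogs. Of the 8 smooth muscle and pericyte markers, TAGLN, MYH11 and PDGFRB were also lowest in CHAD-G4. CNN1 and ACTG2 were lowest in Joey, and DES in CHAD-G6. RGS5 was below the 40th percentile on all arrays, with 3.75 in Joey, its lowest dog, and 3.77 in Dal-4. The mean over these 8 markers was 6.71 to 9.92 in Golden Retrievers and 7.53 to 9.62 in non-Golden Retrievers, with 8.77 in DD-1. Tucker and Joey were the 2 dogs with the most signal for the epithelial marker EPCAM, at 8.03 and 8.87. Of the other 3 epithelial markers with a probe set, CDH1 was below the 40th percentile on all arrays. KRT8 was highest in DD-1, at 11.67, with 9.45 in Tucker and 10.3 in Joey. KRT18 was highest in Journey, at 13.22, followed by Joey at 12.52 and Tucker at 11.9, and lowest in CHAD-G4, at 3.57. The mean over the 4 markers was 5.39 to 8.31 in Golden Retrievers and 4.95 to 8.88 in non-Golden Retrievers, with 7.69 in DD-1. The part of these cells in the LOX signal was not tested, and in a culture arrayed as a whole, fewer cells of a type and less RNA per cell cannot be told apart. LOXL2, a secreted relative of LOX that also acts on basement membrane collagen, was more even. Its lead probe set ran from 12.64 in Tucker to 13.21 in CHAD-G8 among Golden Retrievers, against 12.71 in Dal-4, 13.04 in Joey and 13.35 in CHAD-P9. DD-1 had 13.15. The range was 0.71 log2 units (SD 0.229, n = 10), against 0.96 and 1.22 in the other tested LOXL2 sets. Tucker was low for both enzymes, whereas CHAD-G4 was highest for LOX and among the lower dogs for LOXL2, and Joey was lowest for LOX and near the middle for LOXL2.

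**Figure D1:**
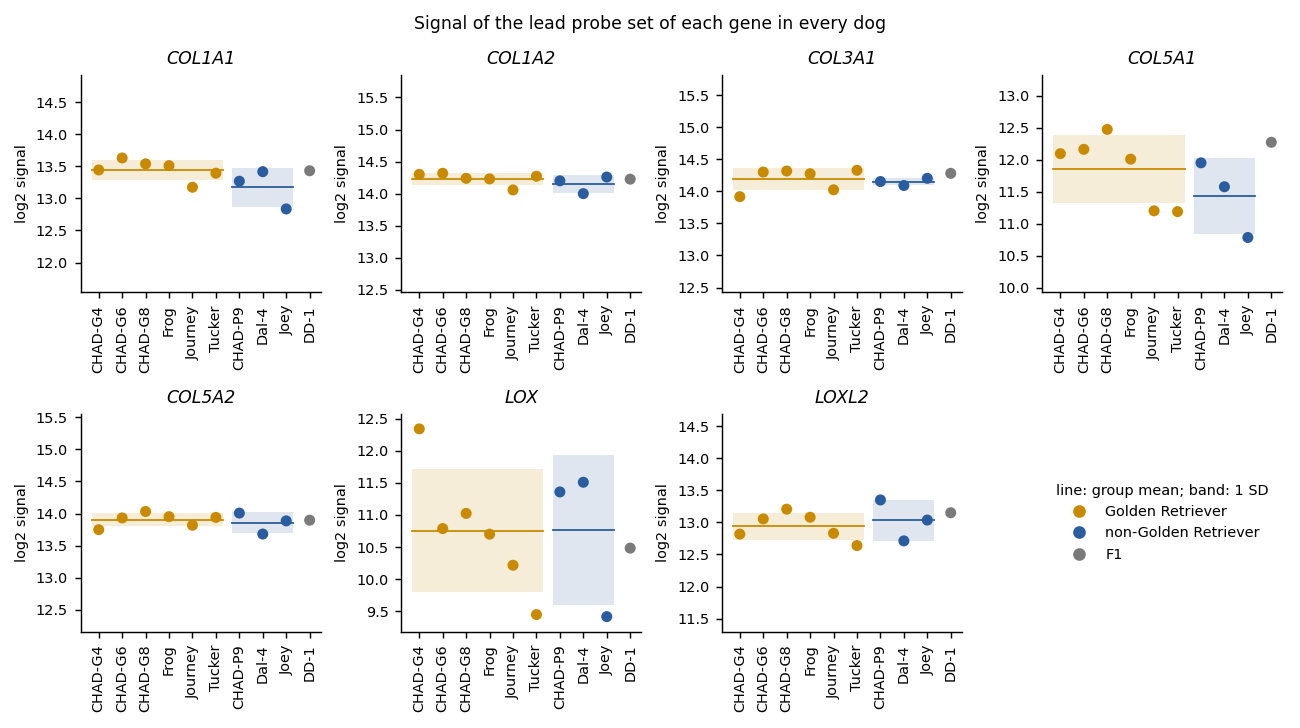
Log2 signal (y axis, each panel spanning 3.4 log2 units) of the lead probe set of 7 genes in every dog (x axis), with Golden Retrievers in ochre, non-Golden Retrievers in blue and the F1 dog in gray. Lines are group means and bands are 1 SD; LOX spread over 2.93 log2 units and COL1A2 over 0.32, and the breed groups overlapped in every panel.

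Set against their own medians, the 7 lead probe sets gave each dog a different profile. Journey lay below the median for 7 of 7 genes, with deviations from -0.78 log2 units at COL5A1 to -0.10 at COL5A2, and Dal-4 and Joey lay below it for 6 of 7. In Dal-4 the exception was LOX, 0.77 log2 units above the median. In Joey the exception was COL1A2, at 0.02, while LOX deviated by -1.33. CHAD-G6 and CHAD-G8 lay above the median for 7 of 7 genes, though by no more than 0.21 and 0.49 log2 units at any of them. Tucker fell on both sides, with deviations of -1.3 log2 units at LOX and 0.09 at COL3A1. Over all 22 tested probe sets, Joey was the lowest dog at 8, Dal-4 at 6, Tucker at 4, and CHAD-G4 and Journey at 2 each, whereas CHAD-G6 was the highest dog at 6. Dal-4 also stood apart in markers of stromal cells. It had a signal of 4.40 for LUM, a collagen-binding proteoglycan of fibroblasts, against 12.47 to 14.08 elsewhere. Dal-4 was also the lowest dog for the fibroblast markers FAP, at 6.53, PDGFRL, at 6.12, and DPT, at 4.39. It was lowest too for TCF21, which was not tested, with 3.75 to 4.36 in every dog except CHAD-P9, at 6.31. For DCN, at 12.96, only CHAD-P9 was lower, at 12.55. The other fibroblast markers went the other way. Dal-4 had the most signal of all dogs for THY1, 8.33 against 6.35 to 7.61. For PDGFRA it had 9.87, with only Frog and DD-1 higher, at 10.06 and 10.08. Of the 8 fibroblast markers, 7 were tested and 5 of them were higher in Golden Retrievers, against 47.1% of all tested probe sets. At an unadjusted p under 0.05, 2 passed (DCN and PDGFRL), against 6.33% of all, and 0 passed the adjusted p (smallest 0.772, limma). The mean signal over these 8 markers was 8.89 to 9.22 in Golden Retrievers and 7.04 to 8.95 in non-Golden Retrievers, with 9.38 in DD-1. The part of these markers' cells in the collagen signals was not tested.

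Probe sets of 1 gene did not always rank the dogs alike. In Affymetrix names, the ending _s_at marks a set whose probes match several transcripts and _x_at one with probes that may bind unrelated transcripts. The 3 tested LOXL2 probe sets correlated at r = 0.98 in each pairing over 10 arrays, and the remaining set had signals of 2.60 to 3.09 and was not tested. For COL5A1, the lead probe set correlated at r = 0.99 with a further set, which spread wider, from 9.84 in Tucker to 11.88 in CHAD-G8 among Golden Retrievers, against 9.21 in Joey to 11.12 in CHAD-P9. The other pair of COL5A1 sets had signals of 5.77 to 6.94 and followed the lead at r = 0.86 and 0.59. Both COL5A2 sets correlated at r = 0.81, with Dal-4 lowest in each, at 11.86 in the one that is not the lead, against 12.51 to 13.10 in the other dogs.

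For COL1A2, 3 sets correlated at r = 0.78 to 0.97, while the remaining set, at 7.88 to 9.13, ran weakly the other way, at r = -0.30 to -0.24. COL3A1 fell into 2 blocks: 3 sets with signals between 12.97 and 14.33 correlated at r = 0.69 to 0.92, and the other 2 sets, at 6.46 to 9.06, correlated at r = 0.96 with each other but at 0.27 to 0.64 with the rest. The 3 COL1A1 sets agreed least among the sets with high signal, at r = 0.34, 0.51 and 0.67, and each put a different dog at the bottom. By the set whose name ends in S1_at, Journey was lowest at 12.64 and Joey had 13.16. By the set ending in S2_at, Dal-4 and Joey were lowest at 11.09 and 11.20, and Journey had 11.77. Statements on COL1A1 in a single dog therefore depend on the probe set.

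The breed groups overlapped at every fibrillar collagen and crosslinker gene. Of the 22 tested probe sets, 0 differed by breed group at an adjusted p under 0.05 by limma with Benjamini-Hochberg adjustment over all 26746 tested probe sets, of which 0.00374% passed. At an unadjusted p under 0.05, 1 of 22 passed by limma, against 6.33% of all tested probe sets, and by the methods' t-test 0 of 22 passed before or after adjustment. The smallest adjusted p among the 22 was 0.772. No member probe set had groups that did not overlap (0 of 22), which 2.46% of all tested probe sets had. By direction alone, 16 of 22 were higher in Golden Retrievers and 6 lower, with a median log2 difference of 0.13, against 47.1% higher and a median of -0.02 over all tested probe sets. Probe sets of 1 gene share their RNA, so these 16 are not independent, and by lead probe sets 5 of 7 genes were higher, with a median of 0.05.

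The probe set at an unadjusted p under 0.05 was the S2_at set of COL1A1. It had signals of 12.28 in CHAD-G4, 12.94 in CHAD-G6, 12.58 in CHAD-G8, 12.88 in Frog, 11.77 in Journey and 12.53 in Tucker, against 12.62 in CHAD-P9, 11.09 in Dal-4 and 11.20 in Joey, with 12.72 in DD-1. Dal-4 and Joey were below every Golden Retriever, whereas CHAD-P9 lay above 4 of the 6. The log2 difference, taken as the Golden Retriever mean less the other mean, was 0.86 (SE 0.37, 95% interval 0.03 to 1.69, limma adjusted p = 0.772). Without CHAD-P9 it was 1.35 (limma adjusted p = 0.269), and without any 1 of 7 other dogs (all but Journey) the unadjusted p was no longer under 0.05. The lead COL1A1 probe set averaged 13.45 ± 0.157 in Golden Retrievers (SD, n = 6) and 13.17 ± 0.302 in non-Golden Retrievers (SD, n = 3), a difference of 0.28 (SE 0.164, 95% interval -0.09 to 0.64, limma adjusted p = 0.79), and the difference was 0.11 without Joey.

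COL5A1 averaged 11.86 ± 0.534 in Golden Retrievers (SD, n = 6) and 11.44 ± 0.595 in non-Golden Retrievers (SD, n = 3), a log2 difference of 0.42 (SE 0.352, 95% interval -0.37 to 1.21, limma adjusted p = 0.851), which is smaller than the SD within either group. It was 0.091 without Joey and 0.67 without CHAD-P9. The COL5A2 probe set that is not the lead had a difference of 0.44 (SE 0.218, 95% interval -0.05 to 0.93, limma adjusted p = 0.774), with the 6 Golden Retrievers between 12.72 and 13.10, CHAD-P9 within that range at 12.94, and Dal-4 and Joey below it at 11.86 and 12.51. The lead set of COL5A2, by contrast, differed by 0.05 (95% interval -0.24 to 0.33). COL1A2 and COL3A1 lead sets differed by 0.08 (95% interval -0.19 to 0.36) and 0.04 (95% interval -0.27 to 0.36), while 2 further COL1A2 sets of high signal differed by 0.35 (95% interval -0.14 to 0.84) and 0.34 (95% interval -0.11 to 0.79). For LOX the interval was the widest of the lead sets. The group means were 10.75 ± 0.96 in Golden Retrievers (SD, n = 6) and 10.76 ± 1.17 in non-Golden Retrievers (SD, n = 3), a difference of -0.01 with a 95% interval of -1.43 to 1.41 (limma adjusted p = 0.998). LOXL2 differed by -0.10 (95% interval -0.50 to 0.31, limma adjusted p = 0.949).

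**Figure D2:**
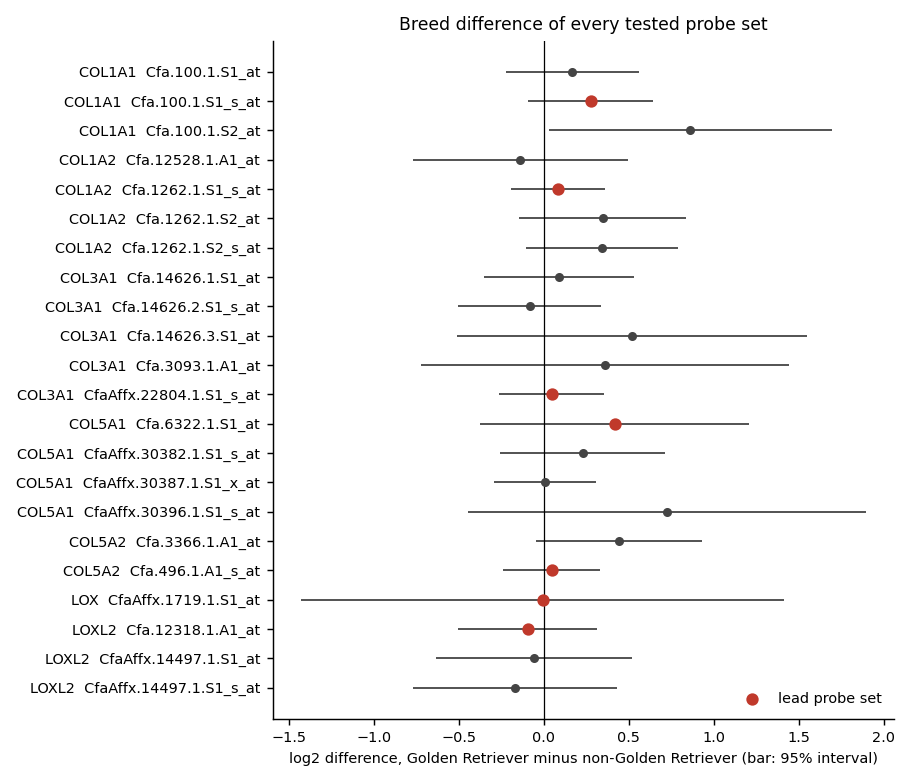
Breed difference in log2 units (x axis, mean of 6 Golden Retrievers less mean of 3 non-Golden Retrievers) of the 22 tested probe sets (y axis), with 95% intervals from limma and lead probe sets in red. The interval excludes 0 only for the S2_at set of COL1A1, from 0.03 to 1.69, and is widest around 0 for LOX, from -1.43 to 1.41.

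Co-variation between the genes was next examined over all 10 dogs, which needs no breed label. Among the 21 pairs of the 7 lead probe sets, 18 had a positive Pearson's r, with a median of 0.29, and 0 passed an adjusted p of 0.05 (permutation test, 100000 resamples, two-sided, Benjamini-Hochberg over 21 pairs), by Pearson's r or by Spearman's rho. At an unadjusted p under 0.05, 4 pairs passed by r and 3 by rho. No scan date or other batch is named in the labels, so no within-batch value can be given.

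COL1A1 and COL5A1 were the closest pair, with r = 0.80 (permutation p = 0.00355, adjusted p = 0.0745) and rho = 0.83 (permutation p = 0.00512, adjusted p = 0.108). CHAD-G6 and CHAD-G8 were high in both, and Joey and Journey low in both. Without Joey and Journey, the dogs farthest from the COL1A1 median, r was 0.44 over 8 dogs, so much of the relation rests on them. It was 0.80 in the 6 Golden Retrievers alone (exact permutation p = 0.0403, adjusted p = 0.292). COL3A1 and COL5A2, the neighbors on chromosome 36, had r = 0.73 (permutation p = 0.0168, adjusted p = 0.176) and rho = 0.67 (permutation p = 0.0382, adjusted p = 0.268), with CHAD-G4, Journey and Dal-4 low in both. Without CHAD-G4 and Journey r was 0.63 over 8 dogs. With each array centred on its median, both pairs passed, at r = 0.82 for COL1A1 with COL5A1 and r = 0.84 for COL3A1 with COL5A2 (permutation adjusted p = 0.0246 for each). Centring subtracts the same value from both genes of a pair on an array, and the part of that shared value in r was not tested. When all probe sets of a gene were averaged, the r of COL3A1 and COL5A2 was 0.26.

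Among pairs of a crosslinker and a collagen chain, LOXL2 with COL5A2 had the highest r by lead probe sets, with r = 0.69 (permutation p = 0.0271, adjusted p = 0.189) and rho = 0.68 (permutation p = 0.0347, adjusted p = 0.268). Tucker was the dog out of line, lowest for LOXL2 but 0.03 log2 units above the median for COL5A2. Without Tucker r was 0.93 (exact permutation adjusted p = 0.00694). Tucker was singled out after seeing these values, so that p is no separate test of the pair. Without any other single dog, r was 0.61 to 0.71 (exact permutation adjusted p = 0.179 to 0.429). Without Dal-4 and CHAD-G4 r was 0.55 over 8 dogs. LOXL2 with COL5A1 had r = 0.52 (permutation p = 0.126, adjusted p = 0.379) and rho = 0.58 (permutation p = 0.0882, adjusted p = 0.463), with r = 0.61 without Joey and Tucker. LOX with COL5A1 had r = 0.65 (permutation p = 0.0442, adjusted p = 0.232) and rho = 0.50 (permutation p = 0.144, adjusted p = 0.584), and without Joey and Tucker r was 0.19, so this relation rests on those dogs. When all probe sets of a gene were averaged, r was 0.66 for LOXL2 with COL5A1, 0.61 for LOXL2 with COL5A2 and 0.52 for LOX with COL5A1, and no difference between these values was tested. LOX with COL3A1 had r = -0.55 (permutation p = 0.0996, adjusted p = 0.378) and rho = -0.41 (permutation p = 0.246, adjusted p = 0.584), with r = -0.46 without CHAD-G4 and Journey and r = -0.11 by averaged probe sets. LOX and LOXL2 had r = 0.12 (permutation p = 0.735, adjusted p = 0.812) and rho = 0.13 (permutation p = 0.734, adjusted p = 0.811), with r = 0.49 without CHAD-G4 and Joey.

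**Figure D3:**
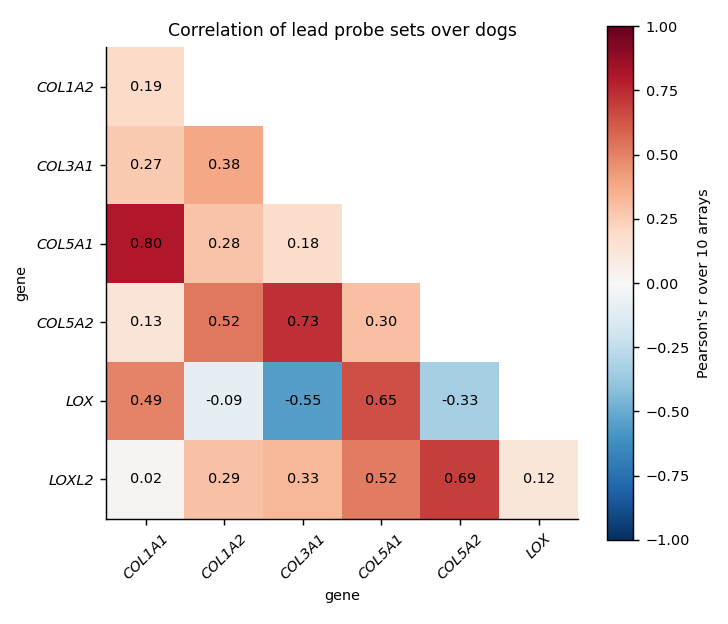
Pearson's r over 10 arrays (color scale from -1 to 1) for the 21 pairs of lead probe sets, with the value printed in each cell. COL1A1 with COL5A1 (0.80), COL3A1 with COL5A2 (0.73) and COL5A2 with LOXL2 (0.69) were highest, and COL3A1 with LOX (-0.55) was lowest.

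The type I chains illustrate how far such values depend on the probe set. By lead probe sets, COL1A1 and COL1A2, whose products form 1 heterotrimer, had r = 0.19 (permutation p = 0.593, adjusted p = 0.766) and rho = 0.43 (permutation p = 0.219, adjusted p = 0.584), and r = 0.36 without Joey and Journey. In the 6 Golden Retrievers alone r was 0.83 (exact permutation p = 0.0611, adjusted p = 0.321). When all probe sets of each gene were averaged, r was 0.81 (permutation p = 0.00293, adjusted p = 0.0507), and the same average gave 0.81 for COL1A2 with COL5A1 and 0.74 for COL1A1 with COL5A2, but 0 of 21 pairs passed the adjusted p.

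**Figure D4:**
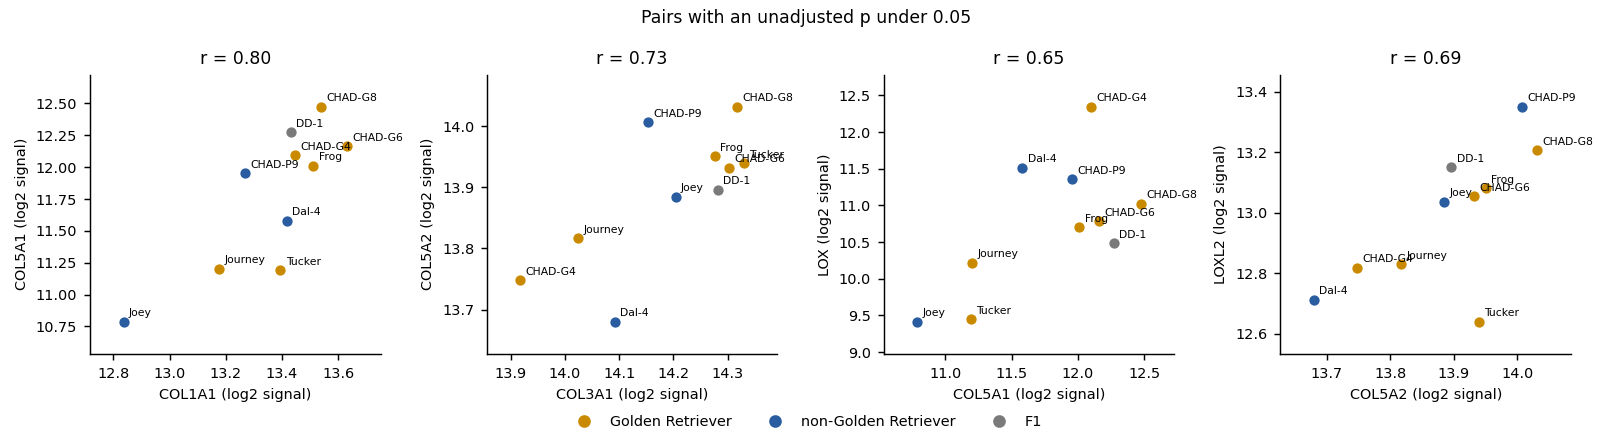
Log2 signals of the 4 pairs of lead probe sets with an unadjusted p under 0.05, 1 point per dog, with Golden Retrievers in ochre, non-Golden Retrievers in blue and the F1 dog in gray. The axes differ in span, since COL5A2 covered 0.35 and LOX 2.93 log2 units; Joey, Journey and Tucker form the low end of COL5A1 with LOX.

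For each member, the genes with the most similar profile over the 10 arrays were named by the largest Pearson's r among all tested probe sets of other genes. Each value is the highest of a very large number of comparisons, so it is given as a description with no test. For COL1A1 they were CCDC80 (a secreted matrix protein, r = 0.96), SQLE (squalene epoxidase of sterol synthesis, r = 0.94) and DOLK (the dolichol kinase of protein glycosylation, r = 0.93), each lowest in Joey. For COL5A1 they were ATP6V0D1 (a subunit of the vacuolar proton pump, r = 0.97), RGS2 (a regulator of G protein signaling, r = 0.96) and TMEM127 (r = 0.95). Of these, RGS2 covered the widest range, from 6.60 in Joey to 11.42 in CHAD-G8, and it shared with COL5A1 both its lowest and its highest dog. For COL3A1 they were C1QTNF3, MAP1B (a microtubule-associated protein) and SERINC1 (r = 0.92 to 0.93), all lowest in CHAD-G4. COL1A2 went with CDADC1, GMCL1 and DZIP1 (r = 0.92 to 0.93) and COL5A2 with WDR26, NKG7 and FAM219B (r = 0.92 to 0.93), all lowest in Dal-4. LOX went with TYK2 (a Janus kinase), OSTF1 and NICN1 (r = 0.96 each), all highest in CHAD-G4 and lowest in Tucker. LOXL2 went with IMPDH1 (an enzyme of guanine nucleotide synthesis), GNB4 (a G protein beta subunit) and NAPSA (r = 0.91 each), all highest in CHAD-P9. The profile of NKG7 spanned only 6.32 to 6.72, so a high r need not mean a large change.

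The other genes of the collagen pathway, from the list of 53 outside the members, were read in the same fit. Of the 50 with a probe set, 47 were tested by their lead set, and 0 differed by breed at an adjusted p under 0.05 by limma. At an unadjusted p under 0.05, 3 of 47 passed, 2 higher and 1 lower in Golden Retrievers, against 6.33% of all tested probe sets. By direction, 32 of 47 were higher and 15 lower, with a median log2 difference of 0.17. Over all tested probe sets 47.1% were higher, with a median of -0.02. These genes were measured in the same cultures, so the 47 are not independent. The breed groups did not overlap at 2 of 47, KDELR2 (higher in Golden Retrievers) and DDR1 (lower), against 2.46% of all tested probe sets.

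Among genes that trim and secrete procollagen, 11 of 12 were tested. Of these, 7 were higher and 4 lower, against 47.1% higher of all tested probe sets. At an unadjusted p under 0.05, 2 of 11 passed by limma, against 6.33% of all. PCOLCE, which speeds the removal of the carboxyl end peptide, had signals of 12.31 in CHAD-G4, 12.38 in CHAD-G6, 12.39 in CHAD-G8, 12.47 in Frog, 11.38 in Journey and 12.33 in Tucker, against 11.88 in CHAD-P9, 11.42 in Dal-4 and 11.58 in Joey, with 12.14 in DD-1. Except for Journey, every Golden Retriever lay above every non-Golden Retriever, and the difference was 0.59 (SE 0.247, limma adjusted p = 0.772). ADAMTS2, which removes the amino end peptide, had signals of 5.55 to 6.52 in Golden Retrievers, against 4.84 to 5.57 in non-Golden Retrievers, a difference of 0.65 (SE 0.257, limma adjusted p = 0.772). TLL1, a relative of the carboxyl end protease BMP1, had the largest SD of this list, at 1.13, and KDELR2, a receptor that returns escaped chaperones to the endoplasmic reticulum, the smallest, at 0.18. KDELR2 had signals of 12.65 to 12.88 in Golden Retrievers, against 12.19 to 12.62 in non-Golden Retrievers (limma adjusted p = 0.784).

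Of 8 tested genes for collagen binding, uptake and breakdown, 1 passed an unadjusted p of 0.05 by limma, against 6.33% of all tested probe sets. This was DDR1, a receptor tyrosine kinase activated by collagen. It had signals of 4.46 in CHAD-G4, 5.62 in CHAD-G6, 6.74 in CHAD-G8, 5.94 in Frog, 6.12 in Journey and 6.90 in Tucker, against 7.16 in CHAD-P9, 7.68 in Dal-4 and 8.64 in Joey, with 4.52 in DD-1. Every Golden Retriever was below every non-Golden Retriever, and DD-1 was at the low end. The log2 difference was -1.86 (SE 0.525, limma adjusted p = 0.772), so it did not pass over all tested probe sets. The other 7 tested genes of that list had differences on both sides of 0. Of all 8, 5 were higher and 3 lower, against 47.1% higher of all tested probe sets. FURIN, a processing protease, varied least (SD 0.199).

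The remaining lists are described by their genes with the largest and smallest SD, and no difference in spread between the lists was tested. Of the 5 other tested lysyl oxidases and lysyl modifying enzymes, LOXL3 had the largest SD, 1.79, from 6.38 in Dal-4 to 11.06 in CHAD-G8, and PLOD3, a lysyl hydroxylase, the smallest, 0.33. Of 14 tested genes for proline hydroxylation and procollagen folding, 10 were higher and 4 lower in Golden Retrievers, against 47.1% higher of all tested. At an unadjusted p under 0.05, 0 of 14 passed by limma, against 6.33% of all. P3H2, a prolyl 3-hydroxylase, varied most (SD 1.00, 7.82 in Tucker to 10.68 in CHAD-G6), and P4HB, the shared subunit of the prolyl 4-hydroxylases, least (SD 0.188). Of the 5 tested genes for fibril-associated or type VI collagens, COL6A3, of type VI, had an SD of 1.92, from 3.94 in CHAD-G4 to 9.99 in CHAD-G6. COL14A1 had an SD of 0.429. Among 4 other tested fibrillar collagens, COL5A3, a minor type V chain, had an SD of 0.458 and COL11A2 of 0.127, and COL2A1 of cartilage was below the 40th percentile on all arrays. Against these, the median SD of the 7 member lead sets was 0.227, and that of all tested probe sets 0.328; 2 of the 7 members, COL5A1 and LOX, exceeded the median of all. Over all 22 member probe sets the median SD was 0.335, and 12 of 22 exceeded the median of all tested.

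**Figure D5:**
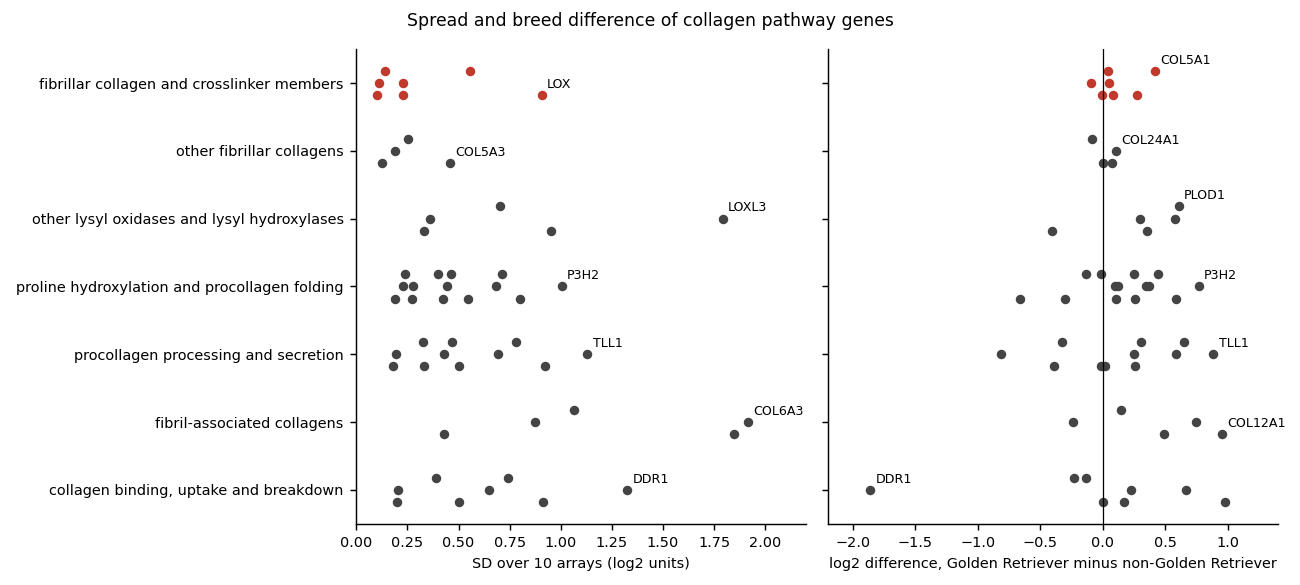
SD over 10 arrays (left, log2 units) and breed difference (right, log2 units, Golden Retriever mean less non-Golden Retriever mean) of the lead probe set of each tested gene, 1 point per gene, with the 7 members in red and 47 other pathway genes in gray by list (y axis). The gene with the largest value in each list is named. LOX reached an SD of 0.907 among members, and DDR1 lay farthest from 0, at -1.86. The list labeled fibril-associated collagens also holds COL6A1 and COL6A3, of type VI.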

How the data were processed

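The authors deposited 1 log2 signal per probe set and array, computed with RMA (affy package, per the labels). Gene names came from the array's annotation, and 29254 of 42860 probe sets had 1 gene, 439 several and 13167 none. Of 43035 probe sets, 175 controls were left out. Breed groups (6 Golden Retrievers, 3 non-Golden Retrievers) were compared with limma 3.58.1 in R 4.3.3 on 26746 probe sets above the 40th percentile on at least 3 arrays, without covariates, two-sided, with Benjamini-Hochberg adjustment; the fit was tested on simulated data. Correlations used Python 3.11.15. Alternatives were no filter, a 60th percentile filter, median-centred arrays, the methods' t-test and a trended robust prior. Others were the F1 dog in either group, males alone, averaged probe sets and each dog left out. Centring in the breed fit used the median of the tested probe sets, and it moved the COL1A1 difference from 0.28 to 0.34. Named were all member probe sets, 3 genes most like each member, and of each pathway list the genes at an unadjusted p under 0.05 and those with the largest and smallest SD. Members and lists were chosen with earlier results of these data known. The p-values measure the spread between these dogs.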

Additional observations from a re-analysis of the deposited data

Results flagged for a closer look

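Within the 6 Golden Retrievers, 3 of 36 probe sets examined had 1 dog far from the rest by Dixon's criterion, and Journey was the low dog in each. The S1_at set of COL1A1 had 12.64 in Journey, against 13.14 to 13.30 in the other 5. The lead set of COL1A2 had 14.06, against 14.23 to 14.32. PCOLCE had 11.38, against 12.31 to 12.47. Chance flags about 1 in 20 groups, and these genes were measured in the same culture.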

How the results depend on the processing

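No member probe set passed the adjusted p, and no lead set separated the breed groups, under any alternative run. The count of member probe sets at an unadjusted p under 0.05, which was 1, became 0 by the methods' t-test, with the F1 dog as a non-Golden Retriever and in males alone, became 2 with the F1 dog as a Golden Retriever, and ranged from 0 to 4 when each dog was left out, with 4 without CHAD-P9. The count of pairs past the adjusted p, which was 0, became 2 with centred arrays and ranged from 0 to 2 when each dog was left out (2 without Tucker, 1 without CHAD-P9); the 6 Golden Retrievers alone, chosen after seeing the data, gave 0. The log2 difference of LOX turned from -0.01 to 0.061 with centred arrays, 0.062 with the F1 dog as a non-Golden Retriever and 0.18 in males alone, and ranged from -0.68 to 0.37 over single dogs left out. It was 0.0025 without Frog, 0.10 without Journey, 0.25 without Tucker, 0.29 without CHAD-P9 and 0.37 without Dal-4. That of COL5A2 ranged from -0.043 (without Dal-4) to 0.12, and that of LOXL2 from -0.26 to 0.064 (without CHAD-P9). Without Joey, the difference was 0.11 for COL1A1 and 0.091 for COL5A1. The other 166 of 176 values for single genes kept their direction and side of the threshold. The 3 non-Golden Retrievers, all male, limit every breed comparison.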
